A study of Mus with 21 samples.

Results

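The 9 genes described here are known from bone and cartilage, and their reads were followed through 21 libraries of whole embryonic mouse brain. They are Runx2, Sp7, Ibsp, Dmp1, Bglap, Alpl, Acan, Matn1 and Matn3, taken by symbol from the 55335 genes of the count table, and all 9 were among the 30552 genes with enough reads to be tested. They were selected on these libraries, because their levels had been seen to differ between brains, so the levels, folds and counts of calls given for them describe the data and are no test. Each brain came from a female mouse embryo at E17.5 (embryonic day). The groups were WT, with Wapl and Nipbl both intact (5 libraries), Nipbl_het, Wapl +/+ and Nipbl +/delta (3 libraries), Wapl_het, Nipbl +/+ and Wapl delta/+ in 2 libraries or +/delta in 5, and Wapl_Nipbl_het, Nipbl +/delta with Wapl delta/+ in 4 libraries or +/delta in 2. Both genes encode regulators of cohesin, a ring-shaped protein complex that holds DNA, with opposite actions on it, and the groups allow a loss of 1 Nipbl copy to be compared with and without a loss of 1 Wapl copy. Both mutant alleles were inherited in recombined form. Nipbl had been recombined by Stra8-iCre in the male germ cells, and Wapl by E2a-Cre in an earlier generation that was then backcrossed. Every cell of a mutant embryo thus carried the alleles of its genotype, in brain and skull alike. Which brains shared a litter is not given in the sources used here.

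Bone of the skull vault forms directly from mesenchyme lying against the meninges. In that lineage RUNX2 commits cells to the osteoblast path, SP7 (osterix) acts after it, and the maturing cells lay down a matrix that includes bone sialoprotein (Ibsp) and osteocalcin (Bglap), while DMP1 marks the osteocyte, the cell buried in bone. Tissue-nonspecific alkaline phosphatase (Alpl) frees phosphate for mineral and is also made outside bone, including in brain and its vessels. The skull base instead forms through cartilage, whose matrix holds the proteoglycan aggrecan (Acan) and the matrilins MATN1 and MATN3. Aggrecan is also secreted in brain, where it belongs to the nets around neurons, and Runx2 is transcribed in some neurons.

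In GRCm38, the build to which the reads were mapped, Ibsp (chr5:104299287-104311472) and Dmp1 (chr5:104197575-104214102) lay 85.2 kb apart in a cluster of mineralized-tissue genes with Dspp, Mepe and Spp1. Bglap (chr3:88383495-88384466) lay beside Bglap2 and Bglap3, near-identical copies with which it may share reads, so its counts are uncertain. The others were Sp7 (chr15:102356603-102367035), Runx2 (chr17:44495987-44814797), Alpl (chr4:137741731-137796384), Acan (chr7:79053226-79115099), Matn1 (chr4:130944385-130955476) and Matn3 (chr12:8947929-8972028). Runx2 overlapped Runx2os3 and Supt3, and Acan overlapped Gm26633, and whether strand was used in counting was not given in the sources used here.

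The libraries held between 25682566 and 35818767 counts. Nipbl stood at 68.2 ± 4.13 CPM (counts scaled to a common library size; mean ± SD, n = 5) in WT, 37.6 ± 2.90 in Nipbl_het (n = 3) and 37.8 ± 1.23 in Wapl_Nipbl_het (n = 6). Wapl stood at 47.0 ± 1.96 CPM in WT, 22.2 ± 2.07 in Wapl_het (n = 7) and 23.4 ± 0.821 in Wapl_Nipbl_het, so each targeted gene followed its label. A list of 10 genes of neurons and their progenitors, led by Tubb3 and Dcx, summed to between 3958 and 4491 CPM in every library. The mitochondrial transcript mt-Nd3 drew 52 or more reads in 9 libraries and 6 or fewer in 12. All 3 Nipbl_het libraries were in the second set, as were all Wapl_het and Wapl_Nipbl_het libraries whose label writes the Wapl alleles as delta/+, while those written +/delta were in the first.

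Before the single genes are given, 3 libraries stood apart for Ibsp and 4 for Matn1, 1 of them for both. The other bone and cartilage genes did not all follow these 2. Nipbl_het replicate 1 and Wapl_Nipbl_het replicates 1 and 2 held more than 10 CPM of Ibsp. Wapl_Nipbl_het replicate 1, Wapl_het replicates 3 and 4, and WT replicate 3 held more than 0.5 CPM of Matn1. Both limits were set after the levels were seen. Differences that turn on these libraries are given with and without them.

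**Figure D1:**
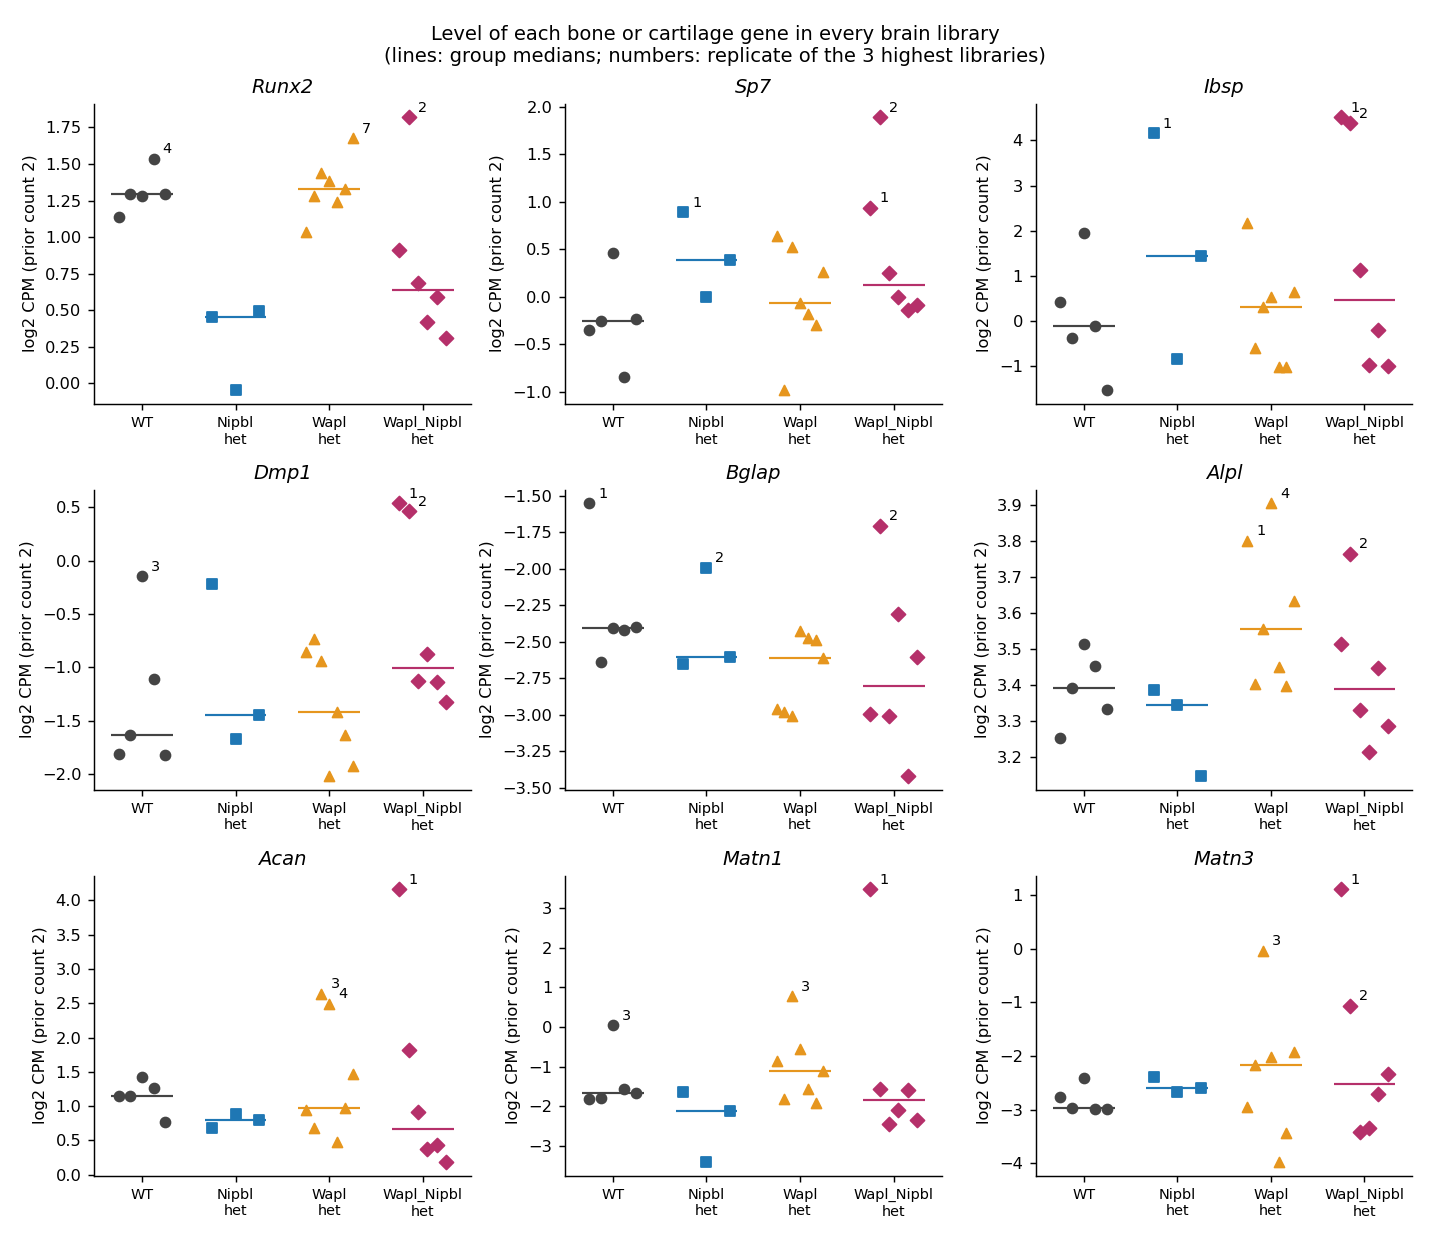
Each panel plots the log2 CPM (prior count 2) of 1 gene in the 21 libraries by genotype, with a line at each group's median and the replicate number of the 3 highest libraries. Ibsp and Dmp1 were highest in Wapl_Nipbl_het replicates 1 and 2, Acan, Matn1 and Matn3 in Wapl_Nipbl_het replicate 1, and Runx2 alone separated all Nipbl_het from all WT libraries.

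Runx2, the transcription factor that starts the osteoblast program, was the member with the clearest order by genotype. In WT it drew 77, 74, 76, 92 and 76 reads, and in Nipbl_het 41, 29 and 40. In Wapl_het its counts ran from 59 to 94 with a median of 83, and in Wapl_Nipbl_het from 35 to 100 with a median of 49.5. Every Nipbl_het library lay below every WT library. Of the 6 Wapl_Nipbl_het libraries 5 also lay below all WT libraries once scaled to depth, and the other, replicate 2, was the highest of all 21.

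Scaled to depth, Runx2 stood at 2.43 ± 0.254 CPM in WT, 1.19 ± 0.245 in Nipbl_het, 2.49 ± 0.354 in Wapl_het and 1.79 ± 0.853 in Wapl_Nipbl_het. The fitted log2 difference from WT was -1.06 ± 0.16 (SE) in Nipbl_het, a fold of 0.480, and 0.03 ± 0.11 in Wapl_het. In Wapl_Nipbl_het it was -0.45 ± 0.21, and it became -0.75 without replicate 2. The intervals of counting error (95%, exact Poisson) of the highest Nipbl_het library, 0.963 to 1.83 CPM, and of the lowest WT library, 1.69 to 2.67 CPM, overlapped. Genotype accounted for 60.1% of the variance of Runx2 in log2 CPM over the 21 libraries, against a median of 18.8% over the 30552 genes tested, and this ranged from 52.1% to 83.4% when 1 library was left out.

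Sp7, which acts after Runx2 in the osteoblast, ran differently. WT libraries held 26, 24, 42, 16 and 25 reads and Nipbl_het libraries 56, 30 and 37. Wapl_het ranged from 14 to 46 with a median of 29, and Wapl_Nipbl_het from 26 to 105 with a median of 32.5. The highest library was Wapl_Nipbl_het replicate 2 at 3.64 CPM, followed by Wapl_Nipbl_het replicate 1 at 1.85 and Nipbl_het replicate 1 at 1.79, and every pair of groups overlapped. The log2 difference from WT was 0.67 ± 0.26 in Nipbl_het, 0.26 ± 0.26 in Wapl_het and 0.90 ± 0.35 in Wapl_Nipbl_het, and the last was 0.45 without replicate 2. Both transcription factors were highest in the same brain, while in Nipbl_het replicate 1 Sp7 ranked 3rd of 21 and Runx2 18th.

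**Figure D2:**
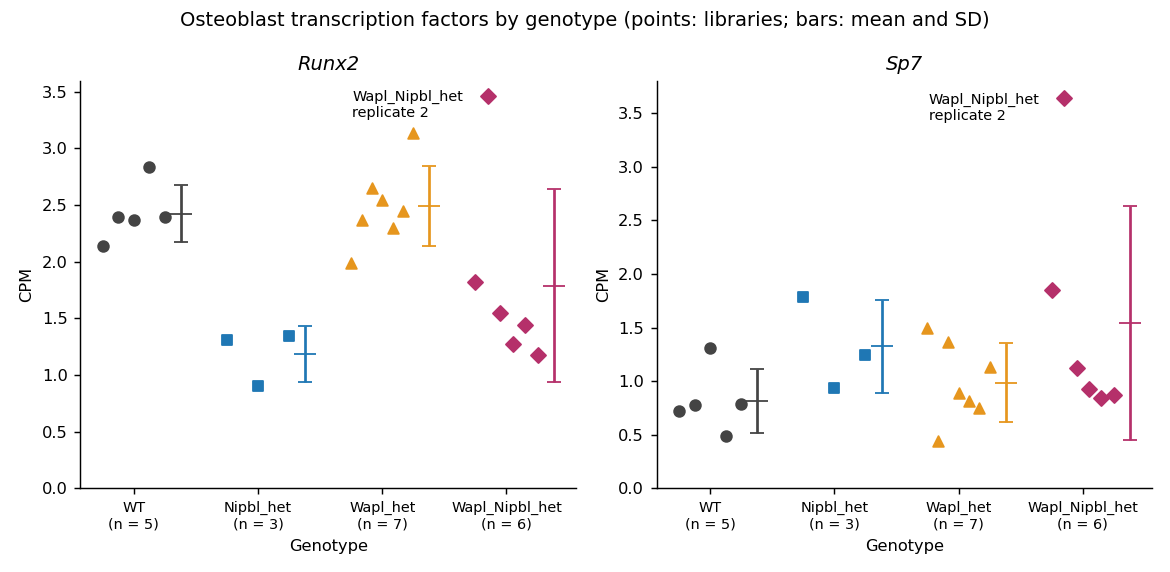
Runx2 and Sp7 in CPM by genotype, each point 1 library, with the mean and SD of each group beside its points and the axis starting at 0. For Runx2 the 3 Nipbl_het libraries lay between 0.906 and 1.35 CPM and the 5 WT libraries between 2.14 and 2.84, and Wapl_Nipbl_het replicate 2 was the highest library for both genes.

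Ibsp, which encodes the sialoprotein that binds mineral in young bone, varied most widely among the bone genes. WT libraries held 46, 22, 122, 28 and 9 reads. The 3 Nipbl_het libraries held 560, 16 and 79. Wapl_het ranged from 11 to 136 with a median of 39, and Wapl_Nipbl_het from 13 to 738 with a median of 48.5. Wapl_Nipbl_het replicates 1 and 2, at 22.8 and 20.9 CPM, and Nipbl_het replicate 1, at 17.9 CPM, together carried 72.1% of the CPM summed over the 21 libraries. The next highest were Wapl_het replicate 1 at 4.43 and WT replicate 3 at 3.80 CPM, and the median library stood at 1.19. In each mutant group holding a high library, the other libraries of the same genotype lay within the WT range.

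The fitted log2 difference of Ibsp was 2.30 ± 0.69 in Nipbl_het and 2.497 ± 0.88 in Wapl_Nipbl_het against WT, with 0.02 ± 0.53 in Wapl_het, which ran from -0.59 without Wapl_het replicate 1 to 0.82 without WT replicate 3. Without Nipbl_het replicate 1 the first became 0.14, and without Wapl_Nipbl_het replicates 1 and 2 the second became -0.51. Genotype accounted for 12.8% of its variance. All 9 libraries with many mt-Nd3 reads held 1.5 CPM of Ibsp or less, and the 12 others ran from 0.448 to 22.8 CPM. This split accounted for 25.2% of the variance of Ibsp, against a median of 3.25% over the genes tested. For Dmp1 it was 22.4%, and for the other members at most 12.4% (Sp7). Within the 12 others, the medians of Ibsp were 1.28 CPM in WT, 2.66 in Nipbl_het, 2.51 in Wapl_het and 11.5 in Wapl_Nipbl_het, and the groups overlapped. The group comparisons were also fitted within these sets, with calls given under processing. A fit of genotype and this split together was not made.

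Dmp1, the osteocyte matrix gene, followed Ibsp at a lower count. It drew 8, 8, 27, 13 and 7 reads in WT and 25, 8 and 9 in Nipbl_het. In Wapl_het it ranged from 6 to 17 with a median of 9, and in Wapl_Nipbl_het from 10 to 45 with a median of 13.5. Its 4 highest libraries, Wapl_Nipbl_het replicates 1 and 2, WT replicate 3 and Nipbl_het replicate 1, were all among the 5 highest for Ibsp. The log2 difference was 0.19 ± 0.45 in Nipbl_het and turned to -0.51 without Nipbl_het replicate 1. In Wapl_het it was -0.16 ± 0.35 and turned to 0.32 without WT replicate 3, and in Wapl_Nipbl_het it was 0.88 ± 0.43, and 0.05 without replicates 1 and 2.

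Bglap, the osteocalcin gene of the mature osteoblast, had few reads. Its counts were 1 to 10 in every library, with a median of 3. The 3 highest libraries for Ibsp were split, with 3 reads in Nipbl_het replicate 1, 2 in Wapl_Nipbl_het replicate 1 and 7 in Wapl_Nipbl_het replicate 2, the second highest count of all. WT replicate 1, with 10 reads, was the highest. The paralogs Bglap2 and Bglap3 reached at most 6 and 3 reads, both in Nipbl_het replicate 1. The log2 differences were -0.26 ± 0.52 in Nipbl_het, -0.72 ± 0.39 in Wapl_het and -0.56 ± 0.47 in Wapl_Nipbl_het. The first turned to 0.11 without WT replicate 1.

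Alpl, the phosphatase of mineralizing cells, varied least. WT libraries lay between 9.46 and 11.4 CPM, Nipbl_het between 8.79 and 10.4, Wapl_het between 10.47 and 14.9 and Wapl_Nipbl_het between 9.20 and 13.5. Nipbl_het replicate 1, with 15.1 times the median Ibsp, held 10.4 CPM of Alpl, below the median of all libraries, 10.51 CPM, while Wapl_Nipbl_het replicates 1 and 2, also high for Ibsp, held 11.4 and 13.5 CPM, the latter the 3rd highest of 21. Of the 7 Wapl_het libraries 4 lay above all WT libraries, and the log2 difference was 0.20 ± 0.08. In Nipbl_het it was -0.12 ± 0.08 and in Wapl_Nipbl_het 0.04 ± 0.08, which turned to -0.07 without replicates 1 and 2.

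Among the cartilage genes, Acan had the most reads. WT libraries held 78, 67, 84, 76 and 52 reads, and Nipbl_het libraries 48, 57 and 50. In Wapl_het it ranged from 34 to 203 with a median of 66, and in Wapl_Nipbl_het from 32 to 579 with a median of 51.5. Wapl_Nipbl_het replicate 1 reached 17.9 CPM, 9.63 times the median library, and Wapl_het replicates 3 and 4 reached 6.18 and 5.57. The 3 Nipbl_het libraries, at 1.53 to 1.78 CPM, lay in the lower part of the WT range of 1.64 to 2.62 or under it. The log2 difference of Wapl_Nipbl_het was 1.03 ± 0.59 with all libraries and turned to -0.31 without replicate 1, while that of Nipbl_het was -0.42 ± 0.16 and that of Wapl_het 0.46 ± 0.32. Without the 4 libraries high for Matn1 the last turned to -0.17.

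Matn1, a matrilin of cartilage that is not part of the neuronal nets, was sharper still. WT libraries held 8, 7, 31, 9 and 8 reads and Nipbl_het libraries 8, 1 and 5. The range was 7 to 54 with a median of 12 in Wapl_het and 4 to 358 with a median of 6.5 in Wapl_Nipbl_het. A single brain, Wapl_Nipbl_het replicate 1, at 11.05 CPM, carried 60.5% of the CPM summed over 21 libraries and 43.2 times the median. Wapl_het replicate 3 followed at 1.64 and WT replicate 3 at 0.967 CPM. The log2 difference of Wapl_Nipbl_het was 2.38 ± 1.06, and -0.98 without replicate 1. In Nipbl_het it was -1.37 ± 0.60 and in Wapl_het 0.51 ± 0.49, the latter turning to -0.09 without Wapl_het replicate 3 alone and standing at 0.35 without all 4 libraries high for Matn1.

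Matn3, the matrilin of growth cartilage, held 0 to 6 reads in 18 of 21 libraries. The others were Wapl_Nipbl_het replicate 1 with 68, Wapl_het replicate 3 with 30 and Wapl_Nipbl_het replicate 2 with 12. The first 2 were also the highest for Matn1 and Acan. Log2 differences were 0.39 ± 0.56 in Nipbl_het, 1.46 ± 0.75 in Wapl_het and 2.51 ± 0.95 in Wapl_Nipbl_het. The last was 0.75 without Wapl_Nipbl_het replicate 1 and -0.14 without replicates 1 and 2, and that of Wapl_het was 0.40 without Wapl_het replicate 3.

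**Figure D3:**
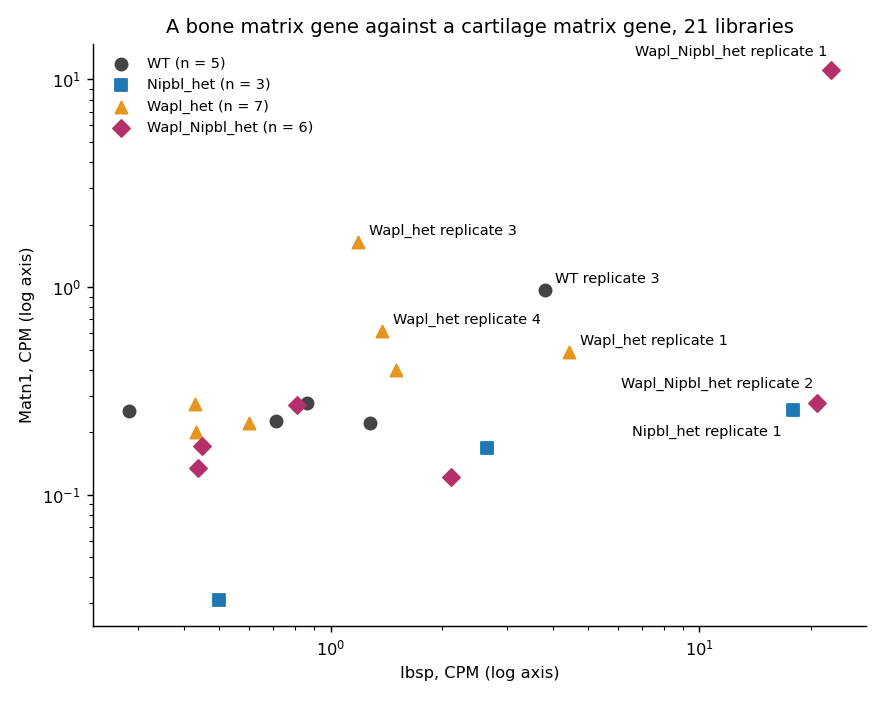
Ibsp against Matn1 in CPM, both on log axes, each point 1 of 21 libraries with its genotype as colour and shape. Nipbl_het replicate 1 and Wapl_Nipbl_het replicate 2 were high for Ibsp and at 0.256 and 0.277 CPM of Matn1, Wapl_het replicate 3 was the reverse, and Wapl_Nipbl_het replicate 1 was the highest for both.

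By the limits set on Ibsp and Matn1 after their levels were seen, the high brains of the 2 genes had 1 library in common. Ibsp in Nipbl_het replicate 1 was 15.1 times the median and Matn1 at it. In Wapl_het replicate 3 Matn1 was 6.44 times, and Matn3 9.75 times the median, with Ibsp at it. In Wapl_Nipbl_het replicate 2 Ibsp was 17.6 times, Sp7 3.91 times, Matn3 4.44 times and Matn1 1.09 times the median, and Acan, at 3.47 CPM, ranked 4th of 21. WT replicate 3, under the limit for Ibsp, was raised for genes of both tissues, with Ibsp at 3.20 times, Dmp1 at 2.16 times and Matn1 at 3.78 times the median. Wapl_Nipbl_het replicate 1 combined both sets, at 19.2 times the median for Ibsp and 43.2 times for Matn1.

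The spread between libraries of the same genotype differed widely among these genes, a description only, since they were selected for such differences. The biological coefficient of variation, the spread left after counting error, was 0.952 for Ibsp and for Matn1, 0.905 for Matn3, 0.595 for Acan, 0.435 for Dmp1 and 0.359 for Sp7, against a median of 0.0801 over the genes tested. It was 0.190 for Runx2, 0.158 for Bglap and 0.0997 for Alpl. For Acan and Matn1, 50.0% and 59.5% of the variance within genotypes came from Wapl_Nipbl_het replicate 1 alone. In the 15 libraries of neither set, Ibsp still ran from 0.284 to 4.43 CPM, and Alpl from 8.79 to 13.9.

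The other genes of the same tissues were listed without regard to how they moved here but with earlier results known. Of 14 tested osteoblast and osteocyte genes, 10 were highest in 1 of the 3 libraries high for Ibsp and 4 elsewhere (Col1a2, Cthrc1, Pth1r and Smpd3). Of 20 tested cartilage genes, 16 were highest in 1 of the 4 libraries high for Matn1 and 4 elsewhere (Fmod, Ihh, Prg4 and Sox9); 14 of the 20 were highest in 1 of the 3 libraries high for Ibsp, as Wapl_Nipbl_het replicate 1 was in both sets. Among 6 tested mineralization and phosphate genes, 1 was highest in 1 of the 3 libraries high for Ibsp and 5 elsewhere. For the 4 libraries high for Matn1 these numbers were 5 and 1. Some peaks rested on few reads, as for Bglap2 and Bglap3, at most 6 and 3. The share of all tested genes highest in these libraries was not computed, so no excess is read from these counts. The genes that follow were picked after their values were seen. Among 16 other osteoblast and osteocyte genes, Ifitm5, an osteoblast membrane protein, drew 19 reads in Nipbl_het replicate 1 and 35 and 32 in Wapl_Nipbl_het replicates 1 and 2, against 4 to 7 in WT. Panx3, a channel of osteoblasts and hypertrophic cartilage, drew 34, 27 and 40 there, against 0 to 7 in WT. Spp1 (osteopontin), which microglia also make, was highest in Wapl_Nipbl_het replicate 2 with 416 reads. Col1a1, the chain of bone and other connective tissue collagen, was highest in Wapl_Nipbl_het replicates 1 and 2 and Wapl_het replicate 4, at 350, 331 and 319 CPM. Mepe, another osteocyte gene of the Ibsp cluster, was at 0 in 19 libraries.

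Of 20 other cartilage genes, Col9a1, Hapln1, Cnmd, Comp and Col2a1 were each highest in Wapl_Nipbl_het replicate 1 and second in Wapl_het replicate 3. Col9a1, a collagen chain of cartilage, drew 817 and 259 reads in these 2, against 65 to 151 in WT. Col10a1, the collagen that hypertrophic cartilage makes before it is replaced by bone, departed from them. It drew 100 reads in Wapl_het replicate 3 and 47 in Wapl_het replicate 4, and 2 in Wapl_Nipbl_het replicate 1, its lowest library, where Matn1 was at its highest. Sox9, the transcription factor of chondrocytes and of neural progenitors, lay between 857 and 1170 reads everywhere.

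Of the tests on genes outside the 9, adjusted p-values are from edgeR's quasi-likelihood test with Benjamini-Hochberg adjustment over 30552 genes, called below 0.10. The labels do not say that libraries of a group are independent in litter, so p-values measure the spread between these libraries. In Nipbl_het against WT, where 11.2% of all genes tested were called, 2 of 14 tested osteoblast and osteocyte genes were called higher and 1 lower. Panx3 rose (log2 difference 2.62 ± 0.73, adjusted p = 0.0335) and so did Ifitm5 (1.33 ± 0.42, adjusted p = 0.0649), while Pth1r, the receptor of parathyroid hormone, was lower (-0.27 ± 0.09, adjusted p = 0.0584). The call of Panx3 was lost without Nipbl_het replicate 1 (log2 difference 1.71, adjusted p = 0.344). That of Ifitm5 was lost without any of 5 libraries (WT replicates 1, 2 and 4, Nipbl_het replicates 1 and 3) and that of Pth1r without any of 4 (WT replicates 1 and 2, Nipbl_het replicates 2 and 3). Of 6 mineralization and phosphate genes 2 were called lower, the mineralization inhibitor Mgp with a log2 difference of -0.65 ± 0.13 (adjusted p = 0.00373) and the pyrophosphate exporter gene Ankh with -0.21 ± 0.05 (adjusted p = 0.0165). Mgp stayed called with any of the 8 libraries left out, and Ankh in all cases but without Nipbl_het replicate 3 (adjusted p = 0.118). Of 20 cartilage genes 3 were called higher, Col2a1, Col9a2 and Col11a2, and 2 lower, Col11a1 and Hapln1. Their log2 differences lay between -0.54 and 0.46. Col9a2 and Col11a2 stayed called with any library left out, Col2a1 was lost without Nipbl_het replicate 1 or 3, Col11a1 without WT replicate 1 or Nipbl_het replicate 3, and Hapln1 without any of 6 libraries (WT replicates 1 to 4, Nipbl_het replicates 1 and 3). Smpd3, which had the most reads of its list after Col1a2, and Slc20a1 and Col9a3, which had the most of theirs, were not called in any comparison.

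In Wapl_het against WT, 2.22% of all genes tested were called. Col1a1 (0.62 ± 0.18, adjusted p = 0.0952) and Col1a2 (0.38 ± 0.10, adjusted p = 0.0891) were called higher. Both calls were lost without any of 9 of the 12 libraries (WT replicates 1, 2, 4 and 5, Wapl_het replicates 1, 3, 4, 5 and 7). Over all genes, calls went from 677 to 13, 9, 246 and 99 without these WT libraries in turn. Without these Wapl_het libraries in turn they were 444, 858, 241, 264 and 767. Of 11 meningeal fibroblast genes, all 11 had a log2 difference above 0 in the same comparison, 5 had an unadjusted p below 0.05 and 2 were called higher, Col3a1 (0.35 ± 0.07) and Gjb2 (0.48 ± 0.07), and their part in the levels of Col1a1 and Col1a2 was not tested. Over all 30552 genes tested, 15000 had a log2 difference above 0, 4780 an unadjusted p below 0.05 and 235 were called higher. Of 6 mineralization and 20 cartilage genes edgeR called 0, with 0 and 3 at an unadjusted p below 0.05. In Wapl_Nipbl_het against WT, where 3.28% of all genes tested were called, Ifitm5 was called higher (1.75 ± 0.50, adjusted p = 0.0842) and Ankh lower (-0.23 ± 0.04, adjusted p = 0.0056). The first call was lost without any of 7 libraries (all 5 WT libraries, Wapl_Nipbl_het replicates 1 and 2), and the second held with any of 11 left out, with adjusted p at most 0.0272. By edgeR 0 of 20 cartilage genes were called, with 2 at an unadjusted p below 0.05. The median log2 difference over the 40 tested genes of these 3 lists was -0.05, 0.10 and 0.19 in Nipbl_het, Wapl_het and Wapl_Nipbl_het, beside -0.0086, -0.0034 and 0.00070 over all genes tested. The 3 comparisons share the same WT libraries.

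By the same test, 2 of the 9 members were called in Nipbl_het against WT, Runx2 lower and Ibsp higher, where 11.2% of all genes tested were called. In Wapl_het 0 of 9 were called (1 at an unadjusted p below 0.05) beside 2.22% of all genes, and in Wapl_Nipbl_het 0 of 9 (5 at an unadjusted p below 0.05) beside 3.28%. Groups that did not overlap were seen for 1 member, Runx2 in Nipbl_het against WT, where 14.7% of genes did not overlap, and for 0 members in Wapl_het (1.4% of genes) and Wapl_Nipbl_het (2.53%). The interaction asks whether the double heterozygote departs from the sum of both single effects on the log2 scale. It was called by edgeR for 0 members and for 0% of genes, with 0 members and 4221 of all genes at an unadjusted p below 0.05. DESeq2 called 0 members and 793 genes. It gave an adjusted p to 9228 genes only, and a member without one could not be called. The interaction value was 0.55 ± 0.31 for Runx2, 0.14 ± 1.37 for Ibsp and 3.20 ± 1.91 for Matn1, the last turning to -0.15 without Wapl_Nipbl_het replicate 1. Without Wapl_Nipbl_het replicate 6 edgeR called 945 genes for the interaction, and without Wapl_het replicate 2 it called 253, with 0 members in either case. Because members were selected on these libraries, nothing is read from these counts.

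**Figure D4:**
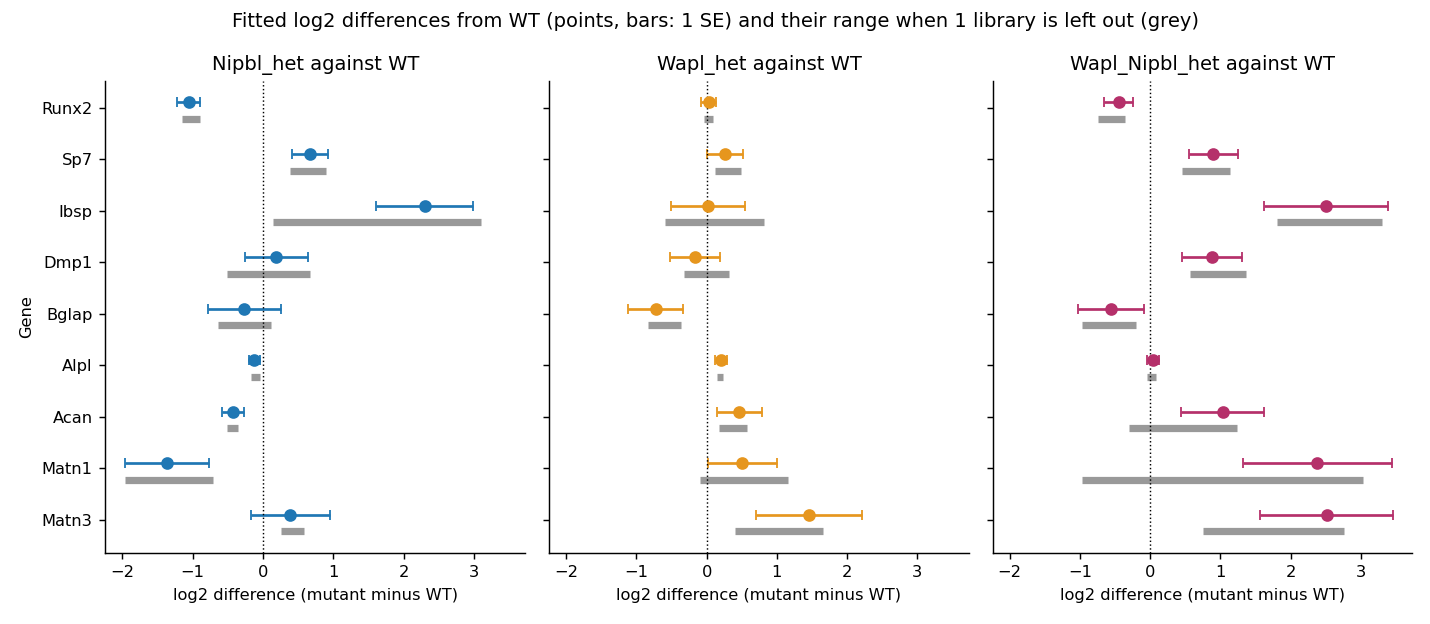
Fitted log2 differences from WT for the 9 genes in the 3 mutant groups, as points with 1 SE, above grey bars for the range obtained when any 1 library of the comparison is left out. The bar of Ibsp in Nipbl_het reached down to 0.14 and those of Acan and Matn1 in Wapl_Nipbl_het crossed 0, whereas that of Runx2 in Nipbl_het stayed between -1.15 and -0.89.

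Without the 3 libraries high for Ibsp, the Runx2 difference was -1.13 in Nipbl_het and -0.83 in Wapl_Nipbl_het, and that of Sp7 0.39 and 0.21. With them left out 2 members were called in Wapl_Nipbl_het, Runx2 and Acan (-0.68), both lower, in a comparison chosen after the data were seen. Over all 30552 genes tested, 335 were called in that comparison. Without the 4 libraries high for Matn1, Ibsp differed by 3.10 in Nipbl_het and 2.59 in Wapl_Nipbl_het, and Matn1 by -0.71 and -0.33. The call of Ibsp in Nipbl_het was lost without WT replicate 2, 4 or 5 or Nipbl_het replicate 1. Sp7 was called there without WT replicate 3 or Nipbl_het replicate 2, and Acan without WT replicate 5. Over all genes, 3422 were called in Nipbl_het with every library. Without WT replicates 2, 4 and 5 and Nipbl_het replicate 1 these were 2499, 2833, 2806 and 1828. Without WT replicate 3 and Nipbl_het replicate 2 they were 3340 and 4788. In Wapl_Nipbl_het, Runx2 was called without replicate 2, and Ibsp, Sp7 and Matn3 without replicate 5. Over all genes, 1001 were called there with every library, 885 without replicate 2 and 2504 without replicate 5. With any single library left out, Runx2 stayed called in Nipbl_het. Its difference lay between -1.15 and -0.89 there and between -0.75 and -0.36 in Wapl_Nipbl_het. Because the members were selected on these libraries, nothing is read from these calls.

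Markers of other tissues around the brain also moved between libraries. In bulk tissue, more cells of a type and more RNA per cell cannot be told apart. A list of 12 skeletal muscle genes, led by Acta1 and Myh8, summed to 105 CPM in WT replicate 3, 87.8 in Wapl_Nipbl_het replicate 3, 81.9 in Wapl_het replicate 4, 64.3 in Nipbl_het replicate 3 and 45.4 in Wapl_Nipbl_het replicate 1, with a lowest of 12.7. Of these 5, 3 were also among the 4 libraries high for Matn1 and 1 was among the 3 high for Ibsp. Nipbl_het replicate 1 and Wapl_Nipbl_het replicate 2, high for Ibsp, held 15.9 and 19.6 CPM of the muscle genes, near the median, and 0 of the 12 muscle genes were called in any of the 3 comparisons or had an unadjusted p below 0.05. Over all genes tested, 11.2%, 2.22% and 3.28% were called in Nipbl_het, Wapl_het and Wapl_Nipbl_het.

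A list of 10 keratinocyte genes summed to 52.2 and 51.8 CPM in Nipbl_het replicates 3 and 1, against 37.1 to 39.9 in WT, and 4 of the 10, Krt5, Krt10, Krt1 and Krtdap, were called higher in Nipbl_het. Over all 30552 genes tested, 1297 were called higher there. A further 10 genes, of osteoclasts, the cells that resorb bone, summed to 36.0 to 40.1 CPM in WT, 42.3 to 49.5 in Nipbl_het, 42.9 to 51.4 in Wapl_het and 40.0 to 46.9 in Wapl_Nipbl_het. The markers Ocstamp, Dcstamp and Atp6v0d2 were at 0 in 6, 5 and 8 libraries and at most at 3, 6 and 5 reads, while Mmp9 (log2 difference 0.68 ± 0.07, 0.50 ± 0.10 and 0.55 ± 0.07) was called higher in all 3 mutant groups. Calcr, the calcitonin receptor gene, was called lower in Nipbl_het (-0.57 ± 0.09) and Wapl_Nipbl_het (-0.35 ± 0.08) and higher in Wapl_het (0.26 ± 0.07), and of the 10 osteoclast genes 4, 9 and 6 had a log2 difference above 0 in Nipbl_het, Wapl_het and Wapl_Nipbl_het. Of all 30552 genes tested, 14762, 15000 and 15338 had a log2 difference above 0 in these groups. The 11 meningeal fibroblast genes summed to 305 to 464 CPM, the highest in Wapl_het replicate 4, where Alpl was also highest. The 5 tooth genes stayed at or below 0.462 CPM in sum. Pituitary genes stood at 90.02 CPM in WT replicate 2 and 42.0 in Wapl_Nipbl_het replicate 6, neither of them in the sets high for Ibsp or Matn1. Of 6 genes of the nets around neurons, which share aggrecan's place in brain, 3, 2 and 4 were called lower in Nipbl_het, Wapl_het and Wapl_Nipbl_het, Tnr and Ptprz1 in all 3. Over all 30552 genes tested, 2125, 442 and 753 were called lower. Red blood cell genes ran from 342 to 815 CPM, endothelial genes from 299 to 399 and olfactory genes from 326 to 429. The part of these tissues in the levels of the 9 genes was not tested.

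**Figure D5:**
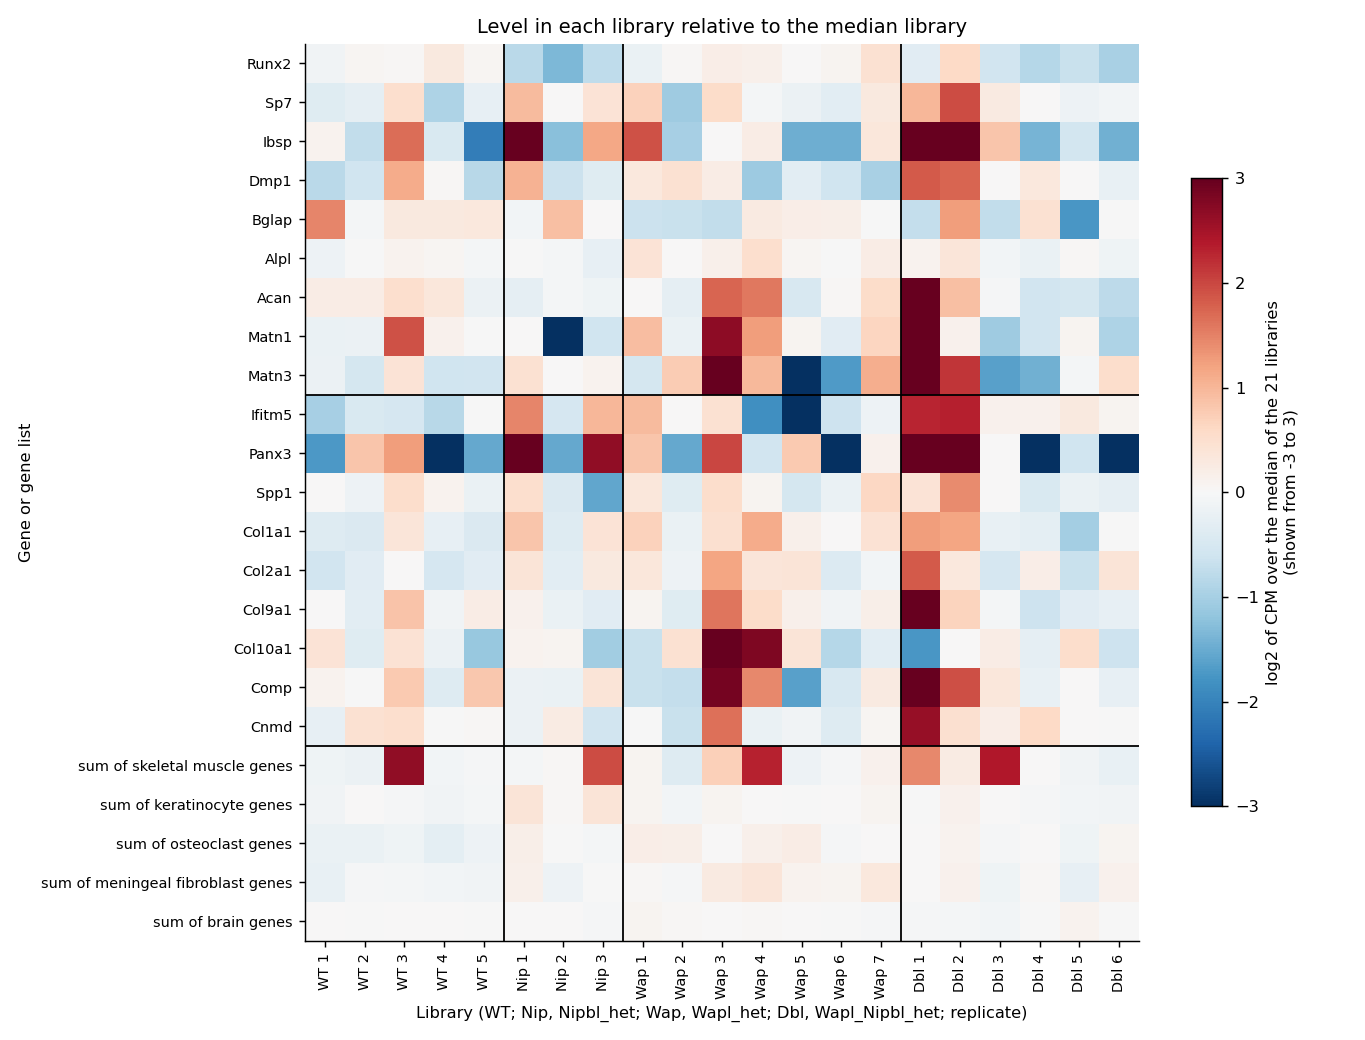
Colour gives the log2 of a gene's CPM, or of the summed CPM of a list, over its median across the 21 libraries, shown from -3 to 3, with genes as rows and libraries as columns grouped by genotype. Dark red cells for Ibsp stand in Nipbl_het replicate 1 and Wapl_Nipbl_het replicates 1 and 2, for Matn1, Matn3 and Col9a1 in Wapl_Nipbl_het replicate 1, for Col10a1 in Wapl_het replicates 3 and 4, and red ones for muscle in WT replicate 3, Wapl_Nipbl_het replicate 3 and Wapl_het replicate 4, while the brain genes stay near 0.

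The genes most like each profile across the 21 libraries were ranked among 20158 genes (bone profile) or 20160 (the others) with a mean of at least 10 counts, as a description in which all points share their library's dissection and depth. The highest of so many correlations can be large by chance, and a chance level was not computed. The mean of Ibsp, Bglap, Sp7 and Dmp1 was followed most closely by Loxl4, a collagen cross-linking enzyme (Spearman's rho 0.86, Pearson's r 0.89, and 0.76 without the 2 farthest libraries), then Ptprv (rho 0.80), Ppm1n (0.78), Rtbdn (0.75) and the skeletal phosphatase gene Phospho1 (0.74). The pair Matn1 and Matn3 was followed by Nod2 (rho 0.84), Phospho1 (0.76), Spp1 (0.75), Abi3 (0.75) and Gm17473 (0.74). Acan was nearest to the collagen genes Col12a1 (0.86) and Col11a1 (0.85), then Mgp (0.80), Papss2 (0.79) and Tns3 (0.76).

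Runx2 was nearest to Eya4 (rho 0.81), Clec3b (0.80), Postn (0.80), Cpne4 (0.80) and A230077H06Rik (0.79). Alpl was nearest to Matn1 by rank (0.84), though Pearson's r was 0.42, then to Gm42793 (0.82), Pdrg1 (0.81), Cthrc1 (0.81) and Sparc (0.77).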

How the data were processed

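Whole-brain RNA from 21 embryos was measured by sequencing after oligo-dT selection. The deposited values were raw counts per gene, which the authors made by trimming with cutadapt 2.4, mapping to GRCm38 with STAR 2.5.3a and counting with featureCounts of Subread 1.6.4, per the labels and the submitters' processing notes. No normalization had been applied. Whether counting used strand or reads with several matches is not given in the sources used here. The study left out a Nipbl_het sample with few reads, not analysed here.

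Libraries held between 25682566 and 35818767 counts. CPM used TMM-scaled totals, and log2 CPM a prior count of 2. A gene entered the tests when its normalized counts over the 21 libraries added up to 10 or more, and was tested with edgeR 4.0.16 (R 4.3.3), quasi-likelihood, over the libraries of the 2 groups compared (all 21 for the interaction), with Benjamini-Hochberg adjusted p below 0.10. The standard error is the log2 difference divided by the root of F. The edgeR fits of the group comparisons and the interaction were tried on simulated counts with 200 changed genes. The levels, spreads, likeness ranks and gap test were not. Counting intervals (95%) and counts cover counting error only.

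The 9 members and the other lists were chosen with earlier results of these data known. Members are all named. Of other lists, those called (at most 4 by smallest adjusted p) and the 2 with the highest mean CPM were to be named; the list genes given for their levels in single libraries, and Hapln1, were picked after their values were seen. The 5 genes most like a profile have the highest Spearman's rho among genes with a mean of at least 10 counts. Alternatives were DESeq2 1.42.0, its size factors, other filters, a threshold of 0.05, a joint fit of the 4 groups, a block for replicate number, libraries left out, and sets by mt-Nd3 reads (limit 10).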

Additional observations from a re-analysis of the deposited data

Results flagged for a closer look

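In the 27 combinations of a gene with a group of 4 or more libraries, a gap test (Dixon, 95%) flagged 1 library in each of 12 combinations. Some libraries were flagged for more than 1 gene. The limits of this test give about 5% by chance for normally distributed values. It was run on CPM without log and every flag was for a highest value, so the chance rate here is not known. The genes were selected because they differed between these brains, so the count is not read as an excess over chance. Nipbl_het, with 3 libraries, was not checked. In WT, replicate 3 stood apart for Ibsp (3.80 CPM, next 1.28), Dmp1 (0.842, next 0.401) and Matn1 (0.967, next 0.277), and replicate 1 for Bglap (0.277, next 0.126), the last on 10 reads. In Wapl_het, replicate 1 stood apart for Ibsp (4.43 CPM, next 1.5) and replicate 3 for Matn1 (1.64, next 0.612) and Matn3 (0.913, next 0.200). In Wapl_Nipbl_het, replicate 2 stood apart for both transcription factors, Sp7 (3.64 CPM, next 1.85) and Runx2 (3.47, next 1.82), and replicate 1 for the 3 cartilage genes, Acan (17.9, next 3.47), Matn1 (11.05, next 0.277) and Matn3 (2.10, next 0.416). Each group checked thus had at least 1 such library, WT included. Alpl had none.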

How the results depend on the processing

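Replicate numbers did not pair libraries across groups (correlations of same-numbered libraries from -0.0485 to 0.0838), so the replicate block is given only here. No called member changed sign under any alternative. Of 810 log2 differences of members recomputed under alternatives, 764 moved by less than the spread between libraries and 46 by more. That spread includes the libraries left out, so large changes can count as small, and the numbers do not measure stability. In Nipbl_het, Ibsp going from 2.30 to 0.94 without both sets counted as less than the spread. So did Dmp1 turning from 0.19 to -0.51 without libraries over 10 CPM of Ibsp. Apart from genes that got no adjusted p under an alternative, the cause of the changes below was not tested.

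Of members called in Nipbl_het (2), DESeq2, 1 fit of all groups, the replicate block, low mt-Nd3 libraries only, leaving out libraries over 10 CPM of Ibsp and leaving out both sets each gave 1, no filter gave 4, and leaving out 1 library gave 1 to 3. In Wapl_Nipbl_het (0), no filter and leaving out libraries over 10 CPM of Ibsp gave 2, the replicate block 3 (Ibsp, Sp7 and Matn3), leaving out both sets 1, and leaving out 1 library 0 to 3. In Wapl_het and in the interaction the count was 0 in each case. DESeq2 gave an adjusted p to 13372 and 9228 genes in these 2, and a member without one could not be called. Calls over all genes also moved and are given last, so nothing is read from these counts.

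Of the 40 tested list genes, those called in Nipbl_het (10) became 6 with DESeq2, 2 in 1 fit of all groups, 3 with the replicate block, 4 in low mt-Nd3 libraries and 4 to 12 without 1 library. In Wapl_het (2) they became 1 with DESeq2 and in high mt-Nd3 libraries, 4 with the replicate block, 0 with filterByExpr, the 0.05 threshold, 1 fit of all groups, low mt-Nd3 libraries, or without libraries over 0.5 CPM of Matn1 or either set, and 0 to 3 without 1 library. In Wapl_Nipbl_het (2) they became 0 in high mt-Nd3 libraries, 1 to 5 without 1 library, and 1 with DESeq2, filterByExpr, the 0.05 threshold, 1 fit of all groups and without the libraries high for Ibsp, Matn1 or either. Ifitm5 got no adjusted p with DESeq2 or filterByExpr in Nipbl_het and Wapl_Nipbl_het, nor did Panx3 in Nipbl_het. Col2a1 and Hapln1 were tested with DESeq2 in Nipbl_het and lost their calls.

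Over all genes, calls ranged from 1658 to 4788 in Nipbl_het (3422), from 7 to 1991 in Wapl_het (677) and from 1 to 2504 in Wapl_Nipbl_het (1001), and in the interaction from 0 to 945 (without Wapl_Nipbl_het replicate 6). Depth was lowest for Bglap, with 1 to 10 reads, and Matn3, with 0 to 6 in 18 libraries.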
